A study of Mus musculus with 6 samples.

Results

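The mitochondrial carrier family, SLC25, comprises small membrane proteins that move nucleotides, phosphate, carboxylic acids, amino acids, cofactors and metals across the mitochondrial inner membrane, and it includes the uncoupling proteins. Its members were taken as all genes of the authors' deposited table whose symbol is Slc25a or Ucp followed by a number, which gave 47 of 26436 genes. The sequenced RNA came from CAD cells of the mouse, a line descended from the catecholaminergic brain tumour line Cath.a, and both groups are cultures of that line with no genetic change named. The 3 undifferentiated libraries came from cells grown in DMEM/F12 with penicillin, streptomycin and fetal bovine serum at 10%. The 3 differentiated libraries came from cells kept for 5 days in DMEM/F12 with the same antibiotics and an insulin, transferrin and selenium supplement in place of serum, so that differentiation, serum loss and the supplement cannot be told apart. The comparison asks which transcripts differ after differentiation.

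Carriers link the mitochondrial matrix to the cytosol, and most exchange one solute for another. ADP/ATP carriers export ATP made by oxidative phosphorylation, and the phosphate carrier supplies the phosphate for it. The citrate carrier brings out acetyl units for lipid synthesis, the aspartate/glutamate and oxoglutarate carriers form the malate-aspartate shuttle on which neurons depend, and the carnitine carrier brings in fatty acids for oxidation.

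No values of single libraries were analysed here: the deposited values are a mean normalized count over the libraries, the log2 change from undifferentiated to differentiated cells (a fold change on the log2 scale, positive where differentiated cells were higher), its standard error (SE) and an adjusted p of the Wald test for each gene. Each group's mean, here called implied, was worked out from these values of mean and change, with groups taken as equally large. A gene was counted as called at an adjusted p under 0.05. Since the RNA was bulk RNA, fewer cells expressing a gene and less RNA per cell cannot be told apart. The labels do not state whether replicate libraries stem from separate cultures, so every p rests on a spread among libraries that may be technical. Of the markers of catecholaminergic neurons, Phox2a was high, with a mean normalized count of 7563 in the authors' deposited table. Th, the rate-limiting enzyme gene of catecholamine synthesis, had a mean of only 91.3 there. Of the other cell types' markers, Gfap of astrocytes, Mbp and Mog of oligodendrocytes, Aif1 of microglia and Col1a1, Col1a2 and Pdgfra of fibroblasts had means of 0.997 to 53.7 in the authors' deposited table, in normalized counts, the highest being Col1a1.

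Carrier transcripts did not move as a family, and opposite changes occurred within several roles. Of 47 members, 44 had an adjusted p, and of these 11 were called higher and 8 lower, with 25 not called. Over all 20285 genes tested, 35.9% were called, 18.2% higher and 17.7% lower, and over the 13197 genes whose mean was at least 100 the share was 47.5%. Of the 34 members at that level, 8 were called higher and 8 lower, so the members' counts lie near those of other genes. The median log2 change of the 44 members was 0.03, beside 0.01 over all genes tested. Called changes of at least 2-fold were found for 5 members, Slc25a34, Slc25a35, Slc25a42 and Slc25a29 upward and Slc25a10 downward, beside 8.37% of all genes tested and 6.86% of those whose mean was at least 100. Summed over members, implied counts were 117957 in undifferentiated and 114944 in differentiated cells, which is 0.301% and 0.298% of all normalized counts.

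The regulatory sequence just upstream of 5 members is shown because these genes mark the contrasts described below: Slc25a34 and Slc25a10, the members with the largest called rise and fall, Slc25a1, which changed opposite to Slc25a10 within the carboxylate carriers, and Slc25a23 and Slc25a24, calcium-regulated paralogs called in opposite directions. Each line gives the 250 bases before a RefSeq transcript start (GRCm38.p6), read 5′ to 3′ on the strand of the gene. Capitals mark a match to GGGCGG (the GC box), CCAAT (the CCAAT box) or CACGTG (the E-box), on either strand.
Slc25a34: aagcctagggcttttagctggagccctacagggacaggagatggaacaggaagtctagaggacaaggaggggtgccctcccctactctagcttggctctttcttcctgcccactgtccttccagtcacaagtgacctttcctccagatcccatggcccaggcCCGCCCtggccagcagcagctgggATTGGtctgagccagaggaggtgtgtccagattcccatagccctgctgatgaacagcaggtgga
Slc25a10: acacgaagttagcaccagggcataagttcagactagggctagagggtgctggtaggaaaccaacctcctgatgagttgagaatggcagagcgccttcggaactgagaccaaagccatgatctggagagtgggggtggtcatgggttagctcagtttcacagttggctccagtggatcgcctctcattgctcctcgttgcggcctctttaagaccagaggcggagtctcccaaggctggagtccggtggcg
Slc25a1: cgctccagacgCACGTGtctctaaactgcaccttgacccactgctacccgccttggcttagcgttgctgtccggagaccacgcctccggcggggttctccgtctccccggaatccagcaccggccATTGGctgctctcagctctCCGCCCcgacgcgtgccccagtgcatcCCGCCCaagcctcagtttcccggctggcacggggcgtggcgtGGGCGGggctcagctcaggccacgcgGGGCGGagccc
Slc25a23: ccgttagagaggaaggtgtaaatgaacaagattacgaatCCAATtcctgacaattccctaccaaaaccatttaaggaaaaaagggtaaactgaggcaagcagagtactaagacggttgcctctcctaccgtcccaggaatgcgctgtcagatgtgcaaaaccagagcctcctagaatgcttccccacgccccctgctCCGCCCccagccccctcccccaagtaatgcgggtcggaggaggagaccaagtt
Slc25a24: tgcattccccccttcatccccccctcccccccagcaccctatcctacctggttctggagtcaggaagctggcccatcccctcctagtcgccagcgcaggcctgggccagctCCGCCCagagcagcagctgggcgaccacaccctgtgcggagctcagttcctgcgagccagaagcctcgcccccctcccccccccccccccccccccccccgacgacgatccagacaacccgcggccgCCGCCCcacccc
The window of Slc25a34 lies at chr4:141623835-141624084 on the minus strand and holds a single CpG, beside a median of 15 over the tested genes with a window. That of Slc25a10, at chr11:120491587-120491836 on the plus strand, holds 9 CpGs and no match to any motif searched. Slc25a1 has chr16:17928220-17928469 on the minus strand, with 25 CpGs, 4 GC boxes, 1 CCAAT box and 1 E-box. The windows of Slc25a23, chr17:57059864-57060113 on the minus strand, and Slc25a24, chr3:109122899-109123148 on the plus strand, hold 9 and 14 CpGs. Another RefSeq window of Slc25a23, chr17:57059843-57060092, is not printed and holds 12 CpGs.

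Promoter windows were matched for 36 of the 47 members by symbol and for 10868 tested genes. Of 45 member windows, 38 were followed by bases that matched a GENCODE transcript of the gene, and the others were not. A GC box was found in 25 of the 36 members (69.4%) and in 62.0% of all matched genes, and a CCAAT box in 17 (47.2%) and 41.0%. The E-box occurred in 6 (16.7%) and 9.59%: Slc25a1, Slc25a13, Slc25a14, Slc25a15, Slc25a33 and Slc25a36, of which Slc25a1 and Slc25a36 were called higher, Slc25a14 and Slc25a15 lower and Slc25a13 and Slc25a33 neither. The sterol element TCACNCCAC was present in the windows of Slc25a18 and Ucp2 and in 1.32% of all matched genes. The palindromic NRF1 motif, TCAAGGTCA (ERR) and TGATGNAAT (ATF4) were in no member window, and in 1.76%, 0.322% and 0.506% of all matched genes. Both strands were searched for each motif, and where a gene has several windows a match in any of them was counted. Motif letters in these windows are a description and not a measure of binding.

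Levels spanned a wide range, and 3 genes made up most of the family's RNA. Per kilobase of exon, the mean normalized count was 17875 for Slc25a4 and 16045 for Slc25a5, which encode the ADP/ATP carriers ANT1 and ANT2, and 6810 for Slc25a3, the phosphate carrier. They were followed per kilobase by Slc25a1 (3571), Slc25a39 (2721), Slc25a11 (1244), Ucp2 (1150), Slc25a20 (1101), Slc25a33 (1019) and Slc25a17 (902). The same 10 genes led when the longest transcript was used as the length, with Slc25a1 and Slc25a39 in exchanged order. Of these 10, 6 were called: Slc25a5 and Slc25a3 lower and Slc25a1, Slc25a39, Slc25a11 and Slc25a20 higher. Among all genes with a mean of at least 100, 47.5% were called. At the other end, 6 members had a mean under 10 normalized counts, namely Ucp1, Ucp3, Slc25a18, Slc25a2, Slc25a41 and Slc25a48, and the last 3 were left without an adjusted p in the authors' deposited table.

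**Figure D1:**
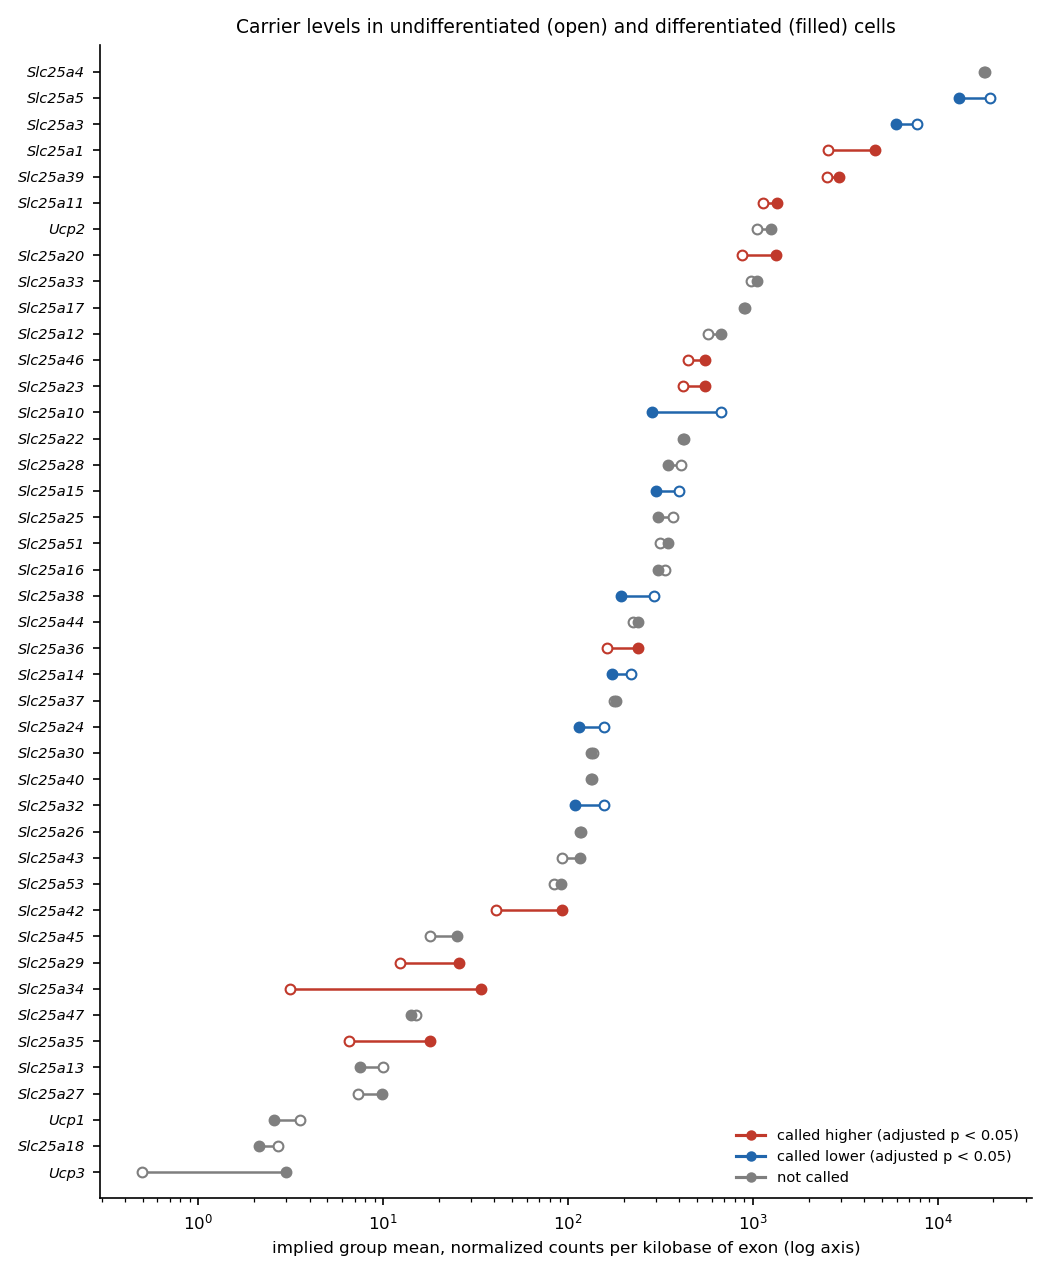
Implied mean of each group in normalized counts per kilobase of exon (log axis) for 43 of the 44 members with an adjusted p, with open points for undifferentiated and filled points for differentiated cells, coloured by call. Slc25a4 stays at about the same level while Slc25a5 falls below it, and the longest line among called members is that of Slc25a34.

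Among the carriers of oxidative phosphorylation, the ANT2 transcript fell and the ANT1 transcript did not change detectably. Slc25a5, the ADP/ATP carrier gene known for its expression in dividing cells, went from an implied 23643 to 16147 normalized counts. Its log2 change in the authors' deposited table was -0.55 (SE 0.09, adjusted Wald p 4.27e-09). Slc25a4, the isoform of heart and muscle that is also expressed in brain, had implied means of 34019 and 34799. In the authors' deposited table its log2 change was 0.03 (SE 0.11, adjusted Wald p 0.858), and the 95% interval ran from 0.887-fold to 1.18-fold. The 95% intervals of the log2 changes, -0.72 to -0.38 for Slc25a5 and -0.17 to 0.24 for Slc25a4, do not overlap, but the difference between them was not tested, since it needs library values. Per kilobase, the implied share of Slc25a5 in the sum of both was 51.9% in undifferentiated and 41.9% in differentiated cells. Slc25a5 lies on chromosome X from 36795651 to 36798807 and Slc25a4 on chromosome 8 from 46206797 to 46211284 (GRCm38, GENCODE M21).

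Reads of Slc25a5 can also fit its processed copies, and the treatment of such reads is not given in the sources used here. A copy annotated as Slc25a5-ps had a mean of 1849 normalized counts and a log2 change of -0.55 with an SE of 0.09 by the authors' deposited table, nearly that of its parent. Slc25a3, which imports phosphate and also carries copper, went from an implied 14980 to 11525 normalized counts. Its log2 change was -0.38 (SE 0.11, adjusted Wald p 0.00178) in the authors' deposited table, and the call was lost once the trend of fold change with mean expression was removed (log2 change -0.24, adjusted p 0.0695, range over alternatives 0.00128 to 0.0695). Slc25a3 lies on chromosome 10 from 91116574 to 91124059.

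The calcium-regulated ATP-Mg/phosphate carriers, which adjust the adenine nucleotide pool of the matrix, split. Slc25a23 went from an implied 1457 to 1929 normalized counts, a log2 change of 0.40 (SE 0.12, adjusted Wald p 0.00354) in the authors' deposited table. Slc25a24 went from an implied 535.01 to 393.2, at -0.44 (SE 0.13, adjusted Wald p 0.00407) in the authors' deposited table. Their paralog Slc25a25, stood at -0.26 (SE 0.12) with a adjusted Wald p of 0.0596 there, and passed only when p-values were adjusted over genes with a mean of at least 100 (0.0452, range over alternatives 0.0452 to 0.150). Slc25a41, another paralog, had a mean of 0.365 and was not tested. The share of Slc25a24 in Slc25a23 plus Slc25a24, per kilobase, was 27.2% in undifferentiated and 17.2% in differentiated cells by implied means.

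Uncoupling proteins dissipate the proton gradient or carry other anions, and Ucp1 is the one of brown fat heat production. Ucp2 was the abundant member, with implied means of 4707 and 5594 normalized counts, and it was not called in the authors' deposited table (log2 change 0.25, SE 0.13, adjusted Wald p 0.137). It passed when the mean expression trend was removed (0.0129, range over alternatives 0.0129 to 0.178). Ucp1 had a mean of 4.99 and Ucp3 of 4.26 in the authors' deposited table, in normalized counts. The log2 change of Ucp3 was 2.59 with an SE of 1.16 (adjusted Wald p 0.0686) in that table, from implied means of 1.22 and 7.30. Of the relatives expressed in brain, Slc25a14 was called lower in the authors' deposited table (-0.34, SE 0.13, adjusted Wald p 0.0284), a call lost when centred on the median gene (0.0525, range 0.0148 to 0.0525). Slc25a30 (-0.02, SE 0.23) and the low Slc25a27 (0.43, SE 0.39) did not pass in the authors' deposited table.

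**Figure D2:**
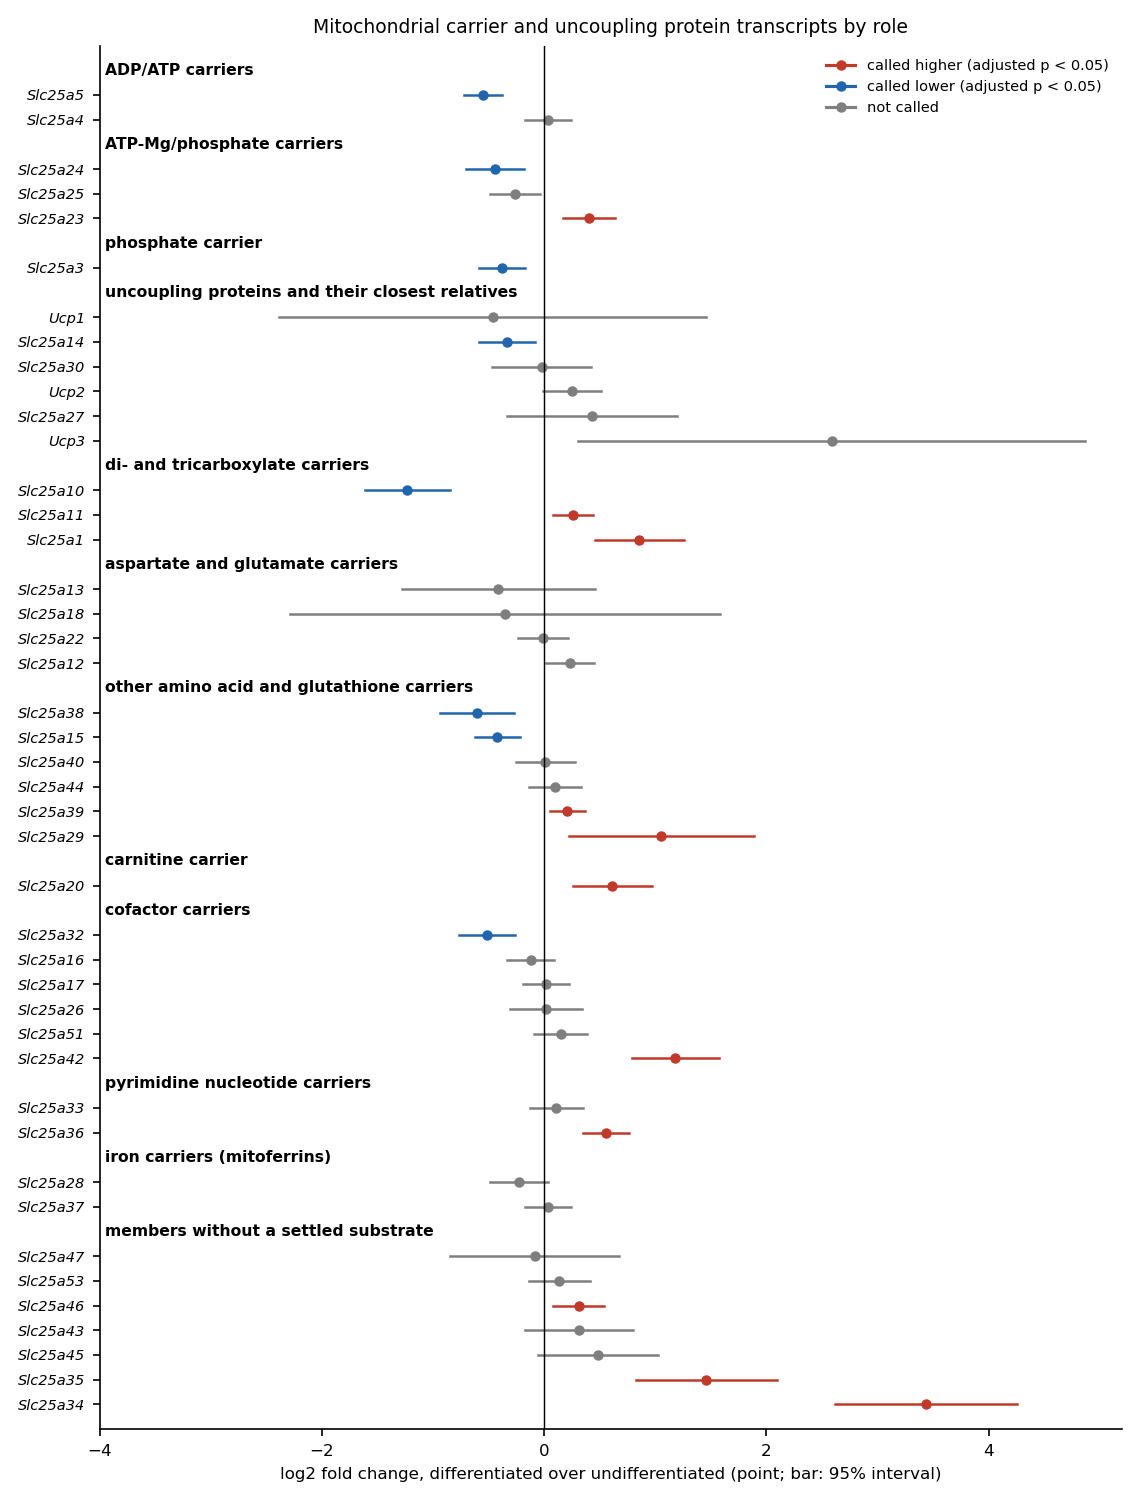
Log2 change from undifferentiated to differentiated cells (points) with 95% intervals (bars) for 43 of the 44 members with an adjusted p, grouped by role and coloured by call. Called members lie on both sides of 0 within the ATP-Mg/phosphate, carboxylate, other amino acid and cofactor carriers, and the widest intervals belong to members with means under 10.

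All 3 carboxylate carriers with a value changed, and not in one direction. Slc25a1, which exports citrate for the making of fatty acids and sterols, went from an implied 4237 to 7663 normalized counts. Its log2 change was 0.85 (SE 0.20, adjusted Wald p 0.000195) in the authors' deposited table, or 1.81-fold with a 95% interval of 1.37 to 2.39. Slc25a10, which exchanges malate or succinate for phosphate, went from an implied 1352 to 574.8 normalized counts. That was the lowest log2 change of the tested members in the authors' deposited table, at -1.23 (SE 0.20, adjusted Wald p 5.40e-09), and 2.07% of all genes tested had a lower one. Slc25a11, the oxoglutarate/malate carrier, was called higher there by a smaller amount (0.26, SE 0.09, adjusted Wald p 0.0185). It shares 189 exonic bases with Rnf167 on the opposite strand, which was called higher as well (0.58, SE 0.16) in the authors' deposited table, and the strand setting of the counting is not given. Slc25a1 lies on chromosome 16 from 17925223 to 17928219 and Slc25a10 on chromosome 11 from 120491840 to 120499187.

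Slc25a1, Slc25a10 and the carnitine carrier gene Slc25a20 had wide errors for their level, and Slc25a11 did not. Standard errors were compared with the running median of genes of equal mean. For Slc25a1 the SE was 2.05 times that median, for Slc25a20 1.65, for Slc25a10 1.60, for Slc25a30 1.58 and for Slc25a11 0.852, and beyond the first 4 no tested member reached 1.5. Among all genes with a mean of at least 100, 7.46% reached that ratio. The median ratio over members was 1.02.

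**Figure D3:**
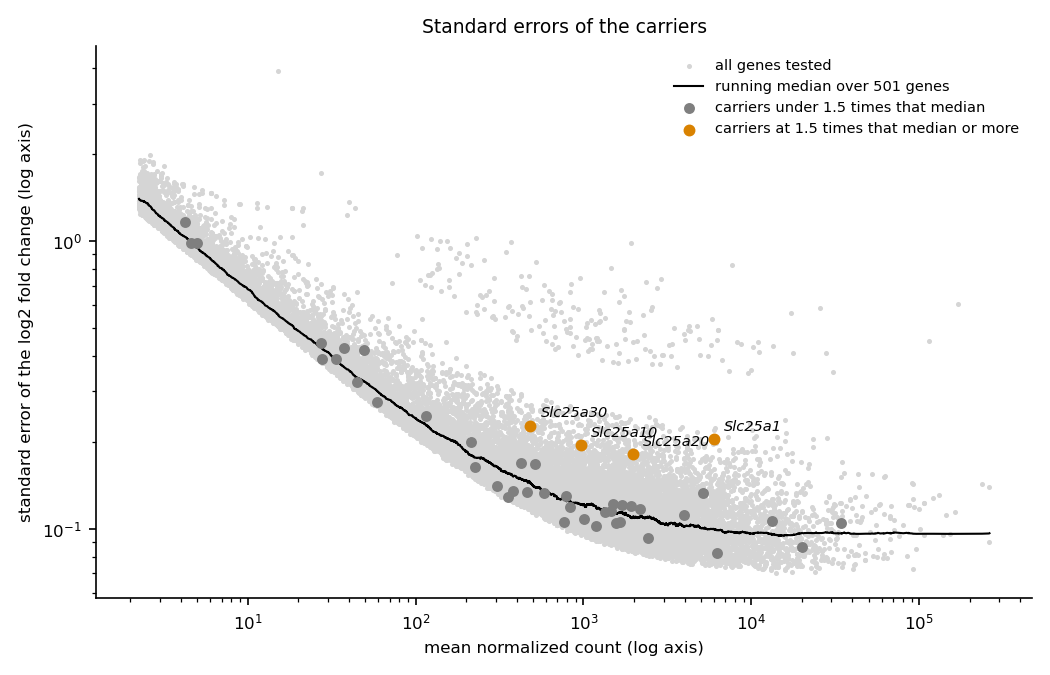
Standard error of the log2 change against the mean normalized count, both on log axes, for all 20285 genes tested (grey), with their running median (line) and the 44 members. Slc25a1, Slc25a10, Slc25a20 and Slc25a30 stand at 1.58 to 2.05 times the median of their level.

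No carrier of aspartate or glutamate was called. Slc25a12, or aralar, the calcium-stimulated aspartate/glutamate carrier of brain and muscle, had implied means of 3638 and 4275 normalized counts and a log2 change of 0.23 (SE 0.11, adjusted Wald p 0.0920) in the authors' deposited table. A call was reached when the fold changes were centred on the median gene (0.0496) and when the mean expression trend was removed (0.0174, range over alternatives 0.0174 to 0.119). Its liver paralog Slc25a13, citrin, had a mean of 27.4 normalized counts, and its implied share of both per kilobase was 1.72% in undifferentiated and 1.10% in differentiated cells. Of the glutamate/proton carriers, Slc25a22 stood at -0.01 (SE 0.11) in the authors' deposited table with a 95% interval of 0.849-fold to 1.16-fold, and Slc25a18 had a mean of only 4.61.

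Other amino acid and glutathione carriers went both ways. Slc25a38, which imports glycine for heme synthesis, was called lower in the authors' deposited table (-0.60, SE 0.17, adjusted Wald p 0.00160), from an implied 619.8 to 407.7 normalized counts. Slc25a15, which exchanges ornithine and citrulline, was also called lower there (-0.42, SE 0.10, adjusted Wald p 0.000253), from an implied 1365 to 1019.5. Slc25a29, a carrier of basic amino acids such as arginine and lysine, was called higher at a low level (1.05, SE 0.42, adjusted Wald p 0.0380) in the authors' deposited table, and the call was lost with the mean expression trend removed (0.101, range 0.0319 to 0.101). The abundant glutathione carrier gene Slc25a39 was called higher by 1.16-fold (log2 change 0.21, SE 0.08, adjusted Wald p 0.0333) in the authors' deposited table, and its log2 change was 0.37 with the mean expression trend removed. Its paralog Slc25a40 (0.01, SE 0.13) and the branched-chain amino acid carrier gene Slc25a44 (0.10, SE 0.12) were not called in that table.

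The carnitine carrier and one cofactor carrier rose. Slc25a20, which passes acylcarnitines into the matrix, went from an implied 1553 to 2372 normalized counts, a log2 change of 0.61 (SE 0.18, adjusted Wald p 0.00340) in the authors' deposited table. Slc25a42, a carrier of coenzyme A, went from an implied 130.6 to 296.2, with a log2 change of 1.18 (SE 0.20, adjusted Wald p 6.34e-08) in the authors' deposited table, the largest rise among members with a mean of at least 100. Slc25a32, linked to folate and FAD transport, fell from an implied 920.1 to 644.4 (-0.51, SE 0.13, adjusted Wald p 0.000451 in the authors' deposited table). The other 5 cofactor carriers were not called, with log2 changes from -0.12 (Slc25a16) to 0.15 (Slc25a51) in the authors' deposited table. Among these are Slc25a16, the peroxisomal carrier gene Slc25a17, the S-adenosylmethionine carrier gene Slc25a26 and the NAD carrier gene Slc25a51.

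Of the pyrimidine nucleotide carriers, Slc25a36 rose 1.47-fold (0.56, SE 0.11, adjusted Wald p 1.59e-06) and its more highly expressed paralog Slc25a33 did not pass (0.11, SE 0.12), both in the authors' deposited table. Neither mitoferrin gene, which serve iron import, was called there: Slc25a28 stood at -0.23 (SE 0.13) and Slc25a37 at 0.04 (SE 0.11).

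Members without a settled substrate held the largest called rises, those of Slc25a34 and Slc25a35. Slc25a34 went from an implied 8.34 to 90.5 normalized counts, a log2 change of 3.44 (SE 0.42, adjusted Wald p 1.10e-14) in the authors' deposited table. That is 10.8-fold with a 95% interval of 6.15 to 19.1, and 99.3% of all genes tested had a lower fold change. Even so, per kilobase Slc25a34 reached only 33.9 normalized counts in differentiated cells, beside 18077 for Slc25a4. Slc25a35, its close relative, had a log2 change of 1.46 (SE 0.32, adjusted Wald p 5.36e-05) in the authors' deposited table, with implied means of 24.0 and 66.05. Since 31.3% of the exonic length of Slc25a35 overlaps Rangrf on the opposite strand and the strand setting of the counting is not given, reads of Slc25a35 and of Rangrf, which was not analysed here, cannot be told apart there. Slc25a46, an outer membrane protein involved in mitochondrial shape, was called higher (0.31, SE 0.12, adjusted Wald p 0.0244) in the authors' deposited table. Slc25a43, Slc25a45, Slc25a47 and Slc25a53 were not called, and Slc25a48 had no adjusted p. Slc25a34 lies on chromosome 4 from 141618824 to 141623821 and Slc25a35 on chromosome 11 from 68968131 to 68974365.

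**Figure D4:**
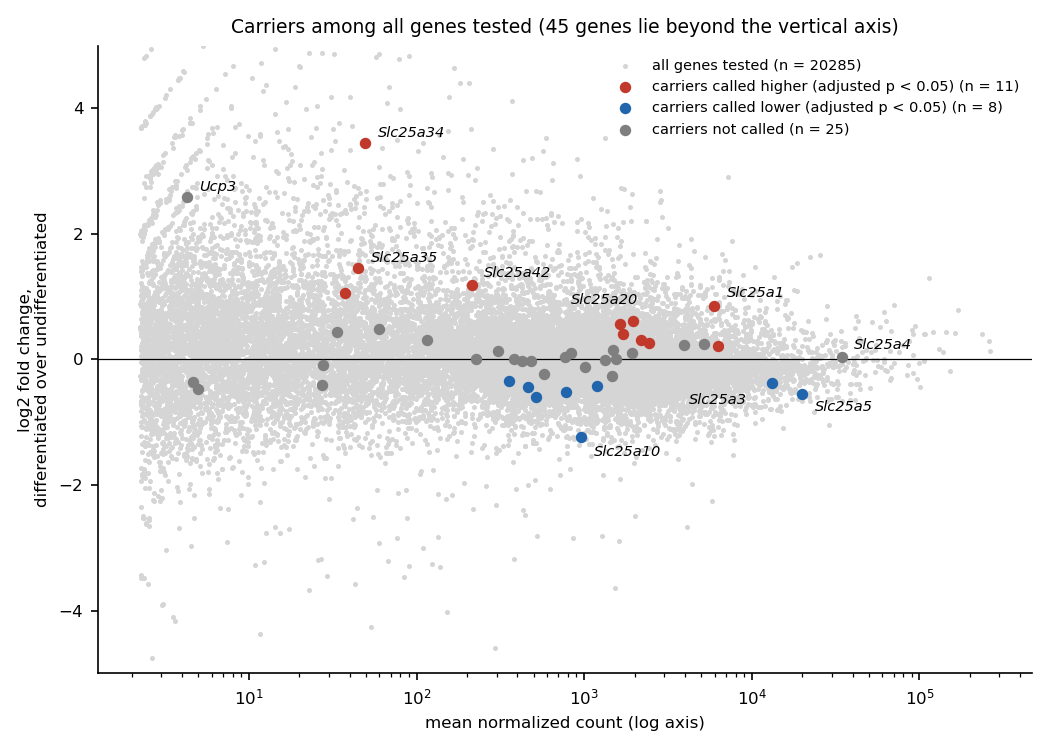
Log2 change from undifferentiated to differentiated cells against the mean normalized count (log axis) for all 20285 genes tested, of which 45 lie beyond the vertical axis, with the 44 members coloured by call. The members lie within the cloud of all genes, with Slc25a34, at low counts, the highest of the members and Slc25a10 the lowest.

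For most members that were not called, the data bound the change. Of these 25, 17 had a 95% interval that lay within 1.5-fold in both directions, and the other 8 had wider ones. The median SE was 0.12 over the 34 members whose mean was at least 100, and 0.44 over the 13 below. Members that lie next to each other were compared as well. Slc25a29, called higher, lies 0.162 kb from Slc25a47 on the opposite strand of chromosome 12, which was not called. Slc25a5, called lower, lies 18.4 kb from Slc25a43 on chromosome X, which was not called, and Ucp2 and Ucp3, 6.90 kb apart on chromosome 7, were both not called.

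Other genes of mitochondrial transport and of the carried substrates were called in 33 of 72 tested cases, 12 higher and 21 lower, with a median log2 change of -0.12. Over all genes tested 18.2% were called higher and 17.7% lower, and where the mean was at least 100 the shares were 21.9% and 25.6%. The pyruvate carrier needs both of its subunits, and Mpc1 fell (-0.60, SE 0.11, adjusted Wald p 1.73e-07) in the authors' deposited table while Mpc2 was not called (0.03, SE 0.10). Of the sideroflexins, a separate family of which some members carry serine, Sfxn3 (0.37) and Sfxn1 (0.30) rose and Sfxn2 fell (-0.72) in the authors' deposited table. None of the 3 VDAC pores of the outer membrane nor Tspo was called, with Vdac1 at 0.14 (SE 0.09) in the authors' deposited table. Mtch1, a carrier relative of the outer membrane, was called lower there (-0.24, SE 0.10).

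Calcium handling genes of mitochondria were called higher in 3 and lower in 2 of 9 cases. Among all genes with a mean of at least 100, 21.9% were called higher and 25.6% lower. The sodium-calcium-lithium exchanger gene Slc8b1 (0.92, SE 0.18, adjusted Wald p 5.45e-06) and the dominant-negative uniporter subunit gene Mcub (0.47) rose in the authors' deposited table. Letm1, a cation exchanger gene (-0.45), and Smdt1, a uniporter subunit gene (-0.29), fell in the authors' deposited table, and the pore gene Mcu was not called (-0.13, SE 0.12). Of 4 ABC transporters, 2 were called lower and none higher, beside the same shares of all genes. Abcb6 stood at -0.51 (SE 0.19) in the authors' deposited table.

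Enzymes beside the called carriers showed a mixed picture. For the counts that follow, 18.2% of all genes tested were called higher and 17.7% lower. Where the mean was at least 100, these shares were 21.9% and 25.6%. Of the carnitine shuttle enzymes, Cpt1c (0.74, SE 0.20) and Cpt1a (0.33, SE 0.10) rose in the authors' deposited table and none of the 5 fell, beside the rise of Slc25a20. Beside the rise of Slc25a1, its follow-on enzyme gene Acly, ATP citrate lyase, was not called (-0.13, SE 0.12), and of 8 citrate and malate enzymes only Me2 changed (-0.56, SE 0.12), both in the authors' deposited table. Beside the fall of Slc25a15, the ornithine aminotransferase gene Oat had the largest fall of these lists (-1.04, SE 0.10, adjusted Wald p 2.88e-23) in the authors' deposited table. Of the proline enzyme genes, Prodh (-0.50) fell and Pycr1 (0.87) rose there. In the malate-aspartate and glycerol phosphate shuttles, the cytosolic aminotransferase gene Got1 rose (0.61, SE 0.12) and Mdh2 (-0.49), Gpd1l (-0.36) and Gpd2 (-0.31) fell in the authors' deposited table. No enzyme gene of mitochondrial folate metabolism was called beside the fall of Slc25a32. Of 8 genes of heme and iron-sulfur cluster assembly, 2 were called higher and 3 lower, among them Glrx5 (-0.36), Ppox (0.48) and Nfs1 (0.29) in the authors' deposited table.

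Regulators of mitochondrial gene expression were called lower in 4 of 6 tested cases and higher in none. Over all genes tested 17.7% were called lower, and 25.6% where the mean was at least 100. In the authors' deposited table Pprc1 fell by 0.88 on the log2 scale (SE 0.15), Nrf1 by 0.55 (SE 0.12), Ppargc1b by 0.38 (SE 0.13) and the mitochondrial DNA packaging factor gene Tfam by 0.37 (SE 0.10). Ppargc1a, the coactivator gene PGC-1alpha, had a mean of only 0.982 and was not tested, and Esrra and Gabpa were not called.

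**Figure D5:**
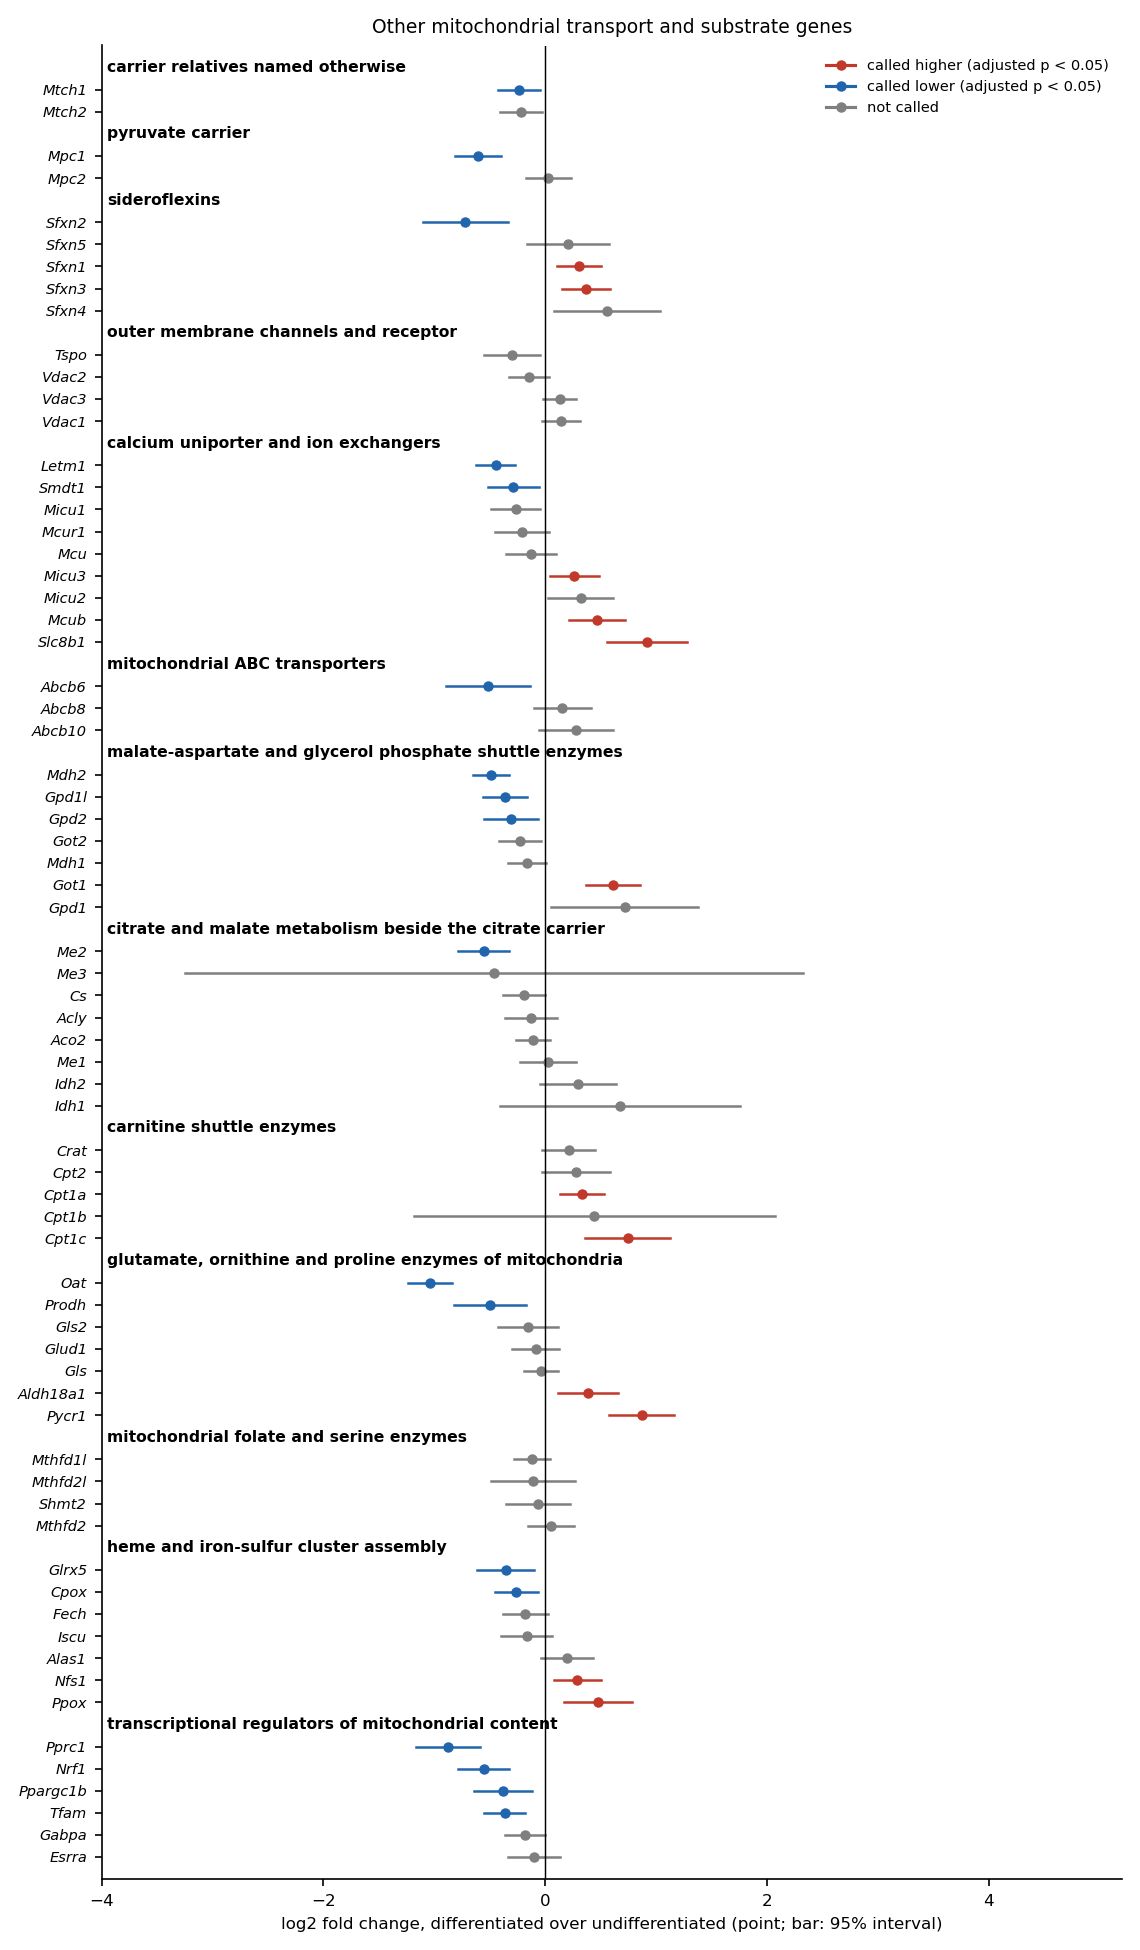
Log2 change from undifferentiated to differentiated cells (points) with 95% intervals (bars) for 69 of the 72 tested genes of mitochondrial transport and carried substrates outside the SLC25 family, grouped by list and coloured by call. The 6 tested regulators all lie left of 0, whereas the ion exchangers and amino acid enzymes have called genes on both sides.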

How the data were processed

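RNA of 3 undifferentiated and 3 differentiated libraries of CAD cells was sequenced with reads of 50 bases, per the labels. FastQC 0.11.5, Trimmomatic 0.36, STAR 2.5.1a, DESeq2 and the build GRCm38.p6 are named in the submitters' processing notes. For the read counter, its strand setting, the annotation and reads with several matches, details were not given in the sources used here. Deposited by the authors was 1 table of the comparison made with DESeq2, per the file headers. As signal, the authors computed for each gene a mean of counts normalized by size factors. The log2 change between differentiated and undifferentiated cells, with its standard error, was estimated by the authors in their model. The authors divided change by error to make the Wald statistic, a score, and from it the deposited p-value and adjusted p-value. The deposited Wald statistics equalled fold change over standard error, and the adjusted p-values equalled a Benjamini-Hochberg adjustment over 20285 genes. The other 6151 rows had no adjusted p and a mean of at most 2.25.

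Values of single libraries, and so their depth, were not analysed here, and the count model planned for that case was replaced by the authors' Wald test. Implied group means take the mean as that over the 6 libraries, an assumption that no label or header states. Intervals are the fold change with its standard error at 95%. Levels per kilobase used merged exons of GENCODE M21. The running median of standard errors took 501 genes. Upstream windows of 250 bases came from RefSeq.

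Members and lists were chosen with earlier results of these data known. Named were every called member, the 10 members highest per kilobase, other members with values, up to 4 called genes of each other list with the largest change at a mean of at least 100, and Mpc1, Mpc2, Mcu, Vdac1, Ppargc1a and Tfam. Protein sequences planned for the paralogs Slc25a23 and Slc25a24 were not used here, and upstream sequences were printed for them and, chosen after values were seen, for Slc25a1, Slc25a10 and Slc25a34. The scripts, in Python 3.11.15 with pandas 2.3.3, numpy 2.4.6 and scipy 1.17.1, were tested on simulated data. Alternatives were other gene sets for the adjustment, other thresholds, other centrings and removal of the trend with mean expression. Some genes of the lists enter the counts but are not reported here by name.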

Additional observations from a re-analysis of the deposited data

How the results depend on the processing

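At an adjusted p under 0.01, 7 members were called higher in place of 11. With a change of at least 1.5-fold also required, 8 members were called in place of 19, of them 6 higher and 2 lower. On that rule the whole table had 3786 calls in place of 7278, 2355 higher and 1431 lower, and the other mitochondrial genes had 9 in place of 33, 4 higher and 5 lower. Under the other 6 alternatives every count stayed within 1.5 times, and no called member changed sign under the alternatives run for it, which were 8 for the 16 whose mean reached 100 and 7 for the remaining 3, Slc25a29, Slc25a34 and Slc25a35. The median log2 fold change of the members lay between 0.02 and 0.07. Of those 16 members, 5 kept their call under all 8 alternatives, and of the other 3, Slc25a34 and Slc25a35 kept it under all 7. Lost at 0.01 were Slc25a11, Slc25a14, Slc25a29, Slc25a39 and Slc25a46. The cause of these shifts was not tested beyond the stricter rules themselves. The median gene stood at -0.03 and the implied totals at -0.02 (log2), so centring on either raised every fold change slightly. No paired analysis was possible because the table holds 1 value per gene and none of single libraries. The sample numbers, 21, 11 and 1 in undifferentiated and 25, 15 and 5 in differentiated cells, might mark pairs, but the labels do not say so. Leaving out each library and edgeR were not run, since both need values of single libraries. For the 13 members with a mean under 100 the median SE of 0.44 limits what change could be detected.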
